A study of Mus musculus with 6 samples.

Results

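The genes of oxidative phosphorylation, which encode the subunits of the 4 respiratory chain complexes and of ATP synthase, were examined in sorted mouse skin cells with and without Zfp750. They were taken by name from the protein-coding genes of the expression table, by the gene symbols in use for complex I (Nduf), II (Sdh), III (Uqcr, Cyc1), IV (Cox4 to Cox8) and V (Atp5) and by the symbols of the mitochondrially encoded subunits. This gave 98 genes of the 23934 in the table, 85 of them nuclear and 13 encoded in mitochondrial DNA. The nuclear genes were 39 named for complex I, 4 for complex II, 9 for complex III, 16 for complex IV and 17 for complex V. Another 8 genes with a matching name were annotated as pseudogenes and were left out. The choice used names only and no measured value.

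The 3 knockout samples are labelled Zfp750 fl/fl Lrig1CreER TdTomatoe, with the genotype ZNF750 fl/fl, Rosa26 -/- and either Lrig1-CreER +/- or Lrig1-CreERT2 +/-. Of the 3 control samples, 2 carried ZNF750 wt/fl with Rosa26 -/- and 1 carried ZNF750 wt/wt with Rosa26 +/-, and each carried Lrig1-CreER +/- or Lrig1-CreERT2 +/-. All 6 samples, controls included, had the tamoxifen-activated Cre recombinase under Lrig1, a gene of the upper hair follicle, and all received 4-hydroxytamoxifen as pups (from day 4 to day 7, or from day 5 to day 8) and were sampled at day 50. Cells of mice expressing tdTomato were sorted from skin, RNA was sequenced once per sample, and the libraries are called S5, S6 and S7 (knockout) and S2, S3 and S4 (control) after the column names, which give the group and match no numbered sample. Deletion could occur only in cells in which Lrig1 was active while the drug was present and in their progeny, so a knockout library may also hold cells with an intact gene. The labels do not state that the libraries come from separate mice. The p-values therefore describe the spread among these libraries, some of which may be technical.

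The respiratory chain passes electrons from NADH (complex I) and succinate (complex II) through ubiquinone to complex III, through cytochrome c to complex IV and on to oxygen. Complexes I, III and IV pump protons across the inner mitochondrial membrane, and ATP synthase (complex V) uses the return flow to make ATP. Complex II is entirely nuclear encoded, while each of the other complexes combines nuclear and mitochondrially encoded subunits, so the transcripts of both genomes have to be made together.

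Depth, estimated from the table, was 16940528 to 20222189 reads in the knockout libraries and 15310076 to 20705203 in the control libraries. The targeted gene Zfp750, a regulator of the terminal differentiation of epidermis, had a normalised count of 4.90, 1.82 and 7.16 in knockout libraries S5, S6 and S7 and of 41.9, 3.75 and 314 in control libraries S2, S3 and S4. The value of control S3 was within those of the knockout libraries, and the gene was too low to be tested. S3 also had the lowest summed keratinocyte markers of the 6 libraries. The collagen genes Col1a1, Col1a2 and Col3a1 together took 6.18%, 4.96% and 5.50% of the total in the knockout libraries, against 22.2%, 33.1% and 17.5% in the control libraries. Markers of other cell types also differed between libraries. The summed markers of 4 types were apart between the groups. Those of neutrophils spanned 1052 to 2797 in knockout and 18.7 to 39.5 in control libraries (2 of 4 tested genes called higher, that is at an adjusted p under 0.05 in limma), with S100a9, Retnlg and Camp at 0 in all control libraries. Mast cell markers spanned 1425 to 4544 in knockout and 44.5 to 619 in control libraries (3 of 7 called higher), with Tpsab1 and Fcer1a at 0 in all control libraries. Fat cell markers spanned 305 to 9131 in knockout and 48.8 to 142 in control libraries (1 of 4 called higher), with Adipoq at 0 in S2, and endothelial markers 2993 to 9631 in knockout and 1463 to 2283 in control libraries (1 of 7 called higher). The sums overlapped for the other lists: 3460 to 25994 in knockout and 778 to 31863 in control libraries for keratinocytes (1 of 11, Krt10, called lower), 1741 to 18682 in knockout and 1255 to 2378 in control libraries for macrophages (0 of 10 called, 6 higher at an unadjusted p under 0.05) and 133 to 1439 in knockout and 56.2 to 401 in control libraries for T cells (0 of 9 called, 4 higher at an unadjusted p under 0.05). Over all tested genes 4.12% were called higher and 2.59% lower, and 12.4% were higher at an unadjusted p under 0.05. The part of these cell types in the results below was not tested. In bulk samples of this kind, fewer cells of a type and less RNA per cell cannot be told apart.

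Of the 98 genes, 91 were abundant enough to be tested and 1 of them passed the test between knockout and control cells. Ndufa4l2, a nuclear gene related to the complex IV subunit gene Ndufa4 and known as a target of hypoxia-inducible factor, fell 11.1-fold in the knockout mean. The other 77 tested nuclear genes and all 13 tested mitochondrially encoded genes did not pass the test (limma), and none of them had a log2 fold change more than 1 unit from 0. The call rule was an adjusted p under 0.05 in limma's moderated test over 15935 genes, on log2 of the normalised count plus a pseudocount of 9.15. It called 6.71% of the genes tested, with 4.12% of them higher and 2.59% lower in knockout. Among the tested nuclear genes 0 of 78 were called higher and 1 of 78 lower, and at an unadjusted p under 0.05 there were 2 higher (2.56%) and 1 lower (1.28%), beside 12.4% and 10.8% of all tested genes. Among the mitochondrially encoded genes 0 of 13 were called, and at an unadjusted p under 0.05 there were 2, both lower in knockout.

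The median SE of the log2 fold change was 0.23 for nuclear, 0.20 for mitochondrially encoded and 0.26 for all tested genes. The 95% interval of the log2 fold change lay wholly within 1 unit on either side of 0 for 66 of the 78 tested nuclear genes (84.6%) and 12 of the 13 mitochondrially encoded genes (92.3%), against 51.9% of all tested genes. That share depends on the size of the fold changes as well as on the SE. The median log2 fold change was 0.09 over the nuclear genes, with quartiles of -0.09 and 0.25. Over all tested genes it was 0.01, with quartiles of -0.31 and 0.34. By complex the medians were 0.04 for the genes named for complex I, -0.03 for complex II, 0.16 for complex III, 0.22 for complex IV and 0.03 for complex V, and without knockout library S7 they were -0.14, -0.25, -0.09, 0.08 and -0.05 in the same order. The median of the mitochondrially encoded genes was -0.10, which became 0.20 when all libraries were scaled to a common total, a scaling that moved the median of all genes to 0.31. Exon length and fold change had a Spearman correlation of 0.02 across the 78 nuclear genes and of -0.04 across 15722 genes with a length, given as a description since genes are not independent replicates.

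**Figure D1:**
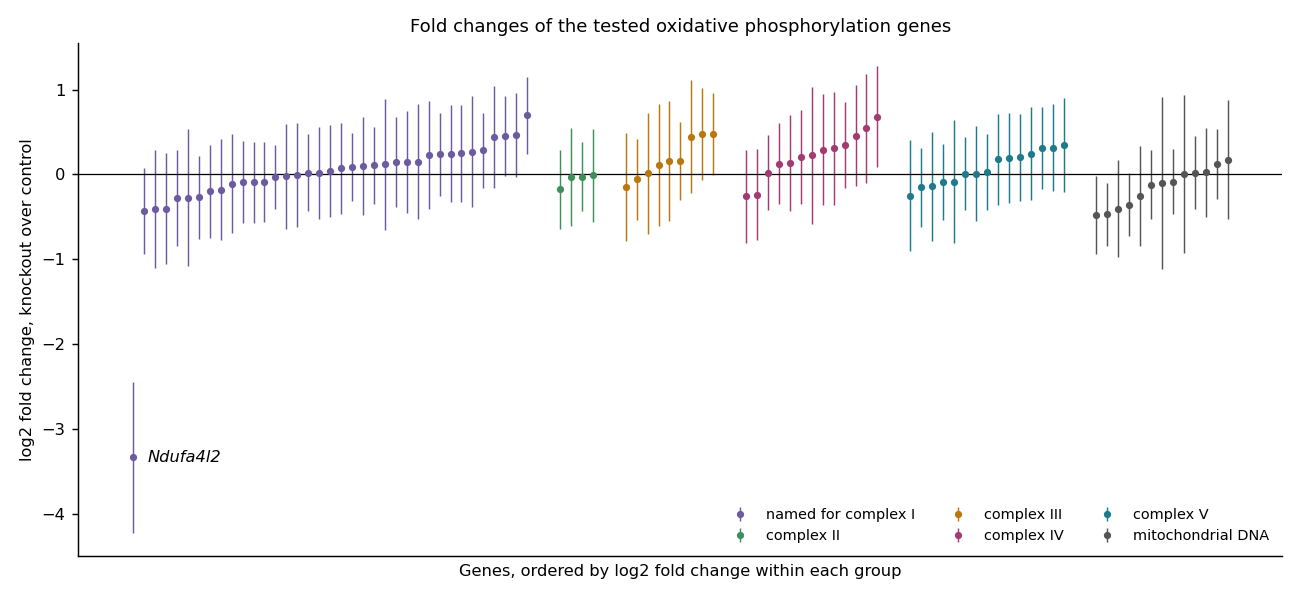
Log2 fold change, knockout over control, of each tested nuclear gene by complex and of the 13 mitochondrially encoded genes, with 95% intervals from limma as bars. Ndufa4l2 stood alone at -3.34, and the other genes lay within 1 unit of 0.

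Ndufa4l2 (ENSMUSG00000040280) lies on chromosome 10, from 127514967 to 127517154 on the plus strand of GRCm38. Its normalised count was 511, 311 and 403 in knockout libraries S5, S6 and S7 and 4859, 6429 and 2252 in control libraries S2, S3 and S4. All 3 knockout libraries were below all 3 control libraries, and the highest knockout value was less than the lowest control value by a wide margin, with 521, 341 and 506 estimated reads in knockout and 3824, 5147 and 2678 in control. The means were 408 ± 100.2 in knockout and 4513 ± 2110 in control (SD, n = 3 each). The log2 fold change was -3.34 ± 0.38 (SE), with a 95% interval of -4.23 to -2.45 and an adjusted p of 0.00449 by limma. It was the 28th most negative fold change among the 413 genes called lower. None of the 50-base windows in its longest protein-coding transcript occurred in a transcript of another gene, Ndufa4 included. Without control S3, the control library with little Zfp750, the log2 fold change was -3.02 (adjusted p = 0.0108, limma), and without knockout S7 it was -3.34 (adjusted p = 0.0220).

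Per kilobase of exon, Ndufa4l2 averaged 373 in knockout and 4122 in control. In control cells that was the highest level among the nuclear genes, above 1209 for the ATP synthase alpha subunit gene Atp5a1, while in knockout cells Atp5a1 stood at 1418. Ndufa4, which encodes a small subunit now placed in complex IV, had 161, 137 and 201 in knockout and 247, 182 and 145 in control libraries, and the groups overlapped (log2 fold change -0.18, adjusted p = 0.721, limma). The ratio of Ndufa4l2 to Ndufa4 was 3.18, 2.27 and 2.00 in knockout libraries, against 19.7, 35.3 and 15.5 in control libraries. Each knockout ratio was below each control ratio. Per kilobase of exon, Ndufa4 averaged 120 in knockout and 139 in control, so Ndufa4l2 was at the higher level of the pair in both groups.

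Several other measures moved with Ndufa4l2 across the libraries. Its order over the 6 libraries, from S3 and S2 through S4 and S5 to S7 and S6, was also that of the share taken by the 3 collagen genes. Per 1000 normalised counts of Col1a1, Ndufa4l2 stood at 1.25, 0.931 and 1.01 in knockout and at 2.26, 1.41 and 1.57 in control libraries, so on this scale the groups lay much closer but still did not overlap. Of 10 fibroblast markers 8 had a log2 fold change below 0, with a median of -0.80 over the list, and the list took 6.33% to 7.93% of the total in knockout and 19.1% to 35.0% in control libraries. The groups were apart for 3 of the 10 in the lower direction, Col1a1, Col1a2 and Col3a1 (30%, beside 13.1% of all tested genes). In the higher direction they were apart for 2 (20%, beside 15.7%). These 2, the receptor genes Pdgfra and Pdgfrb, were the ones above 0: Pdgfra had 29489, 23877 and 25506 in knockout and 10932, 11482 and 10886 in control libraries (log2 fold change 1.24, adjusted p = 0.0165, limma), and Pdgfrb rose by 1.00 (adjusted p = 0.0384). Both were called, and 0 of the 8 others were, with 1, Col1a2, at an unadjusted p under 0.05 (log2 fold change -2.71, adjusted p = 0.131, limma). Of the 7 tested pericyte and smooth muscle markers, cells in which Ndufa4l2 is known to be high, 0 were called. At an unadjusted p under 0.05 there was 1 (14.3%), in the lower direction, beside 10.8% of all tested genes. The summed level of that list was 5849 to 8430 in knockout and 4244 to 7797 in control libraries, and no marker of it was at 0. Of its 7 tested markers 4 had a log2 fold change above 0 and 3 below, over a range of -0.68 to 1.17. Rgs5, a pericyte gene picked after the values were seen, had 272, 652 and 2253 in knockout and 517, 391 and 166 in control libraries. Its groups overlapped. The part of collagen-rich cells in the fall of Ndufa4l2 was not tested.

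A list of hypoxia-responsive genes and oxygen sensors, drawn up after the values had been seen, was set beside that fall. Of its 13 tested genes 1 was called higher and 1, Ndufa4l2 itself, lower. The gene that rose was Epas1, which encodes hypoxia-inducible factor 2 alpha, with 2342, 4656 and 4651 in knockout and 1015, 566 and 1132 in control libraries (log2 fold change 2.08 ± 0.35 SE, adjusted p = 0.0166, limma). Epas1 is known to be high in endothelial cells, and the summed endothelial markers were 2993, 4711 and 9631 in knockout and 1718, 1463 and 2283 in control libraries, also apart between groups. Of their 7 tested genes 1, Flt1, was called higher, the median log2 fold change was 1.71, and Pecam1 and Cdh5 overlapped between groups. The part of endothelial cells in the value of Epas1 was not tested. Hif1a, the gene of factor 1 alpha, overlapped between groups at 2353, 2138 and 2790 in knockout and 2315, 3196 and 2910 in control libraries. The glucose transporter gene Slc2a1 had a log2 fold change of 1.35 (adjusted p = 0.0592, limma), Pdk1, which encodes a kinase that restrains pyruvate dehydrogenase, of -0.70 (adjusted p = 0.290), and Vegfa of -0.25 (adjusted p = 0.427). At an unadjusted p under 0.05, 4 of the 13 were higher (30.8%) and 2, Ndufa4l2 included, lower (15.4%). Over all tested genes these shares were 12.4% and 10.8%. The median of the list was -0.12, and its members lay on both sides of 0.

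**Figure D2:**
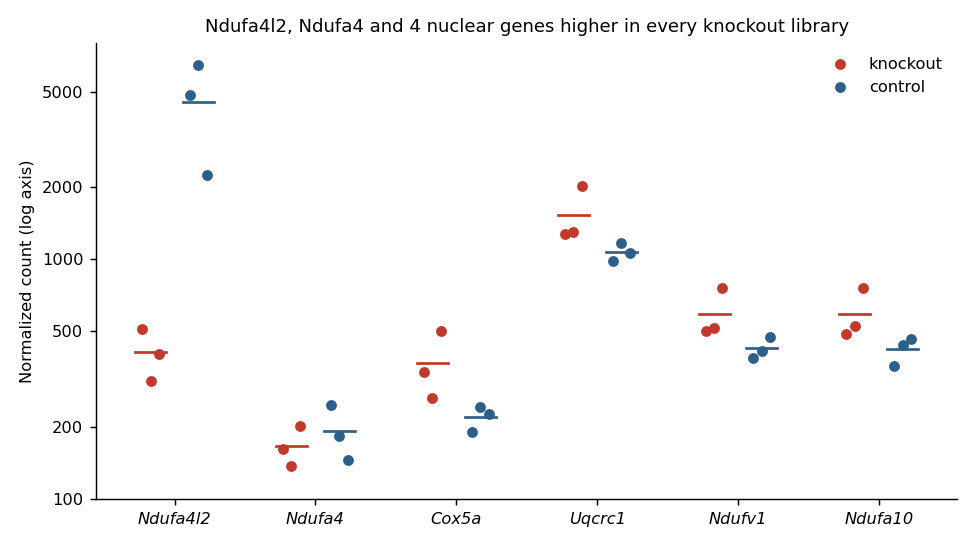
Normalised counts on a log axis of Ndufa4l2, Ndufa4 and 4 nuclear genes that were higher in every knockout library than in any control library. Points are libraries and bars the group means: Ndufa4l2 averaged 408 in knockout and 4513 in control.

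The nuclear genes moved together across the libraries of a group. Knockout library S7 had the highest value of its group in 72 of the 78 tested nuclear genes (92.3%), against 39.3% of all tested genes, and its median log2 distance from the other 2 knockout libraries was 0.51. The same library was highest in 11 of the 13 mitochondrially encoded genes. In control cells S4 was the lowest library in 52 of the 78 nuclear genes, against 6323 of all 15935 tested genes. Without S7 the median log2 fold change of the nuclear genes was -0.08, against 0.09 with it. S7 also had the highest summed macrophage, neutrophil, T cell, fat cell, endothelial and keratinocyte markers of the knockout libraries, with 9131 for the fat cell list, against 305 in S5 and 1392 in S6; Lep was at 0 in S6. What those cells added to its respiratory chain transcripts was not tested.

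Summed over the 84 nuclear genes without Ndufa4l2, the normalised count was 33158, 33596 and 50605 in knockout libraries S5, S6 and S7 and 34893, 35718 and 32235 in control libraries S2, S3 and S4. Libraries S5 and S6 lay within the control range and S7 above it. S7 stood above every other library in each complex once Ndufa4l2 was left out. With Ndufa4l2 counted in complex I, S7 at 11628 lay below 13430 in control S2 and 14811 in control S3.

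**Figure D3:**
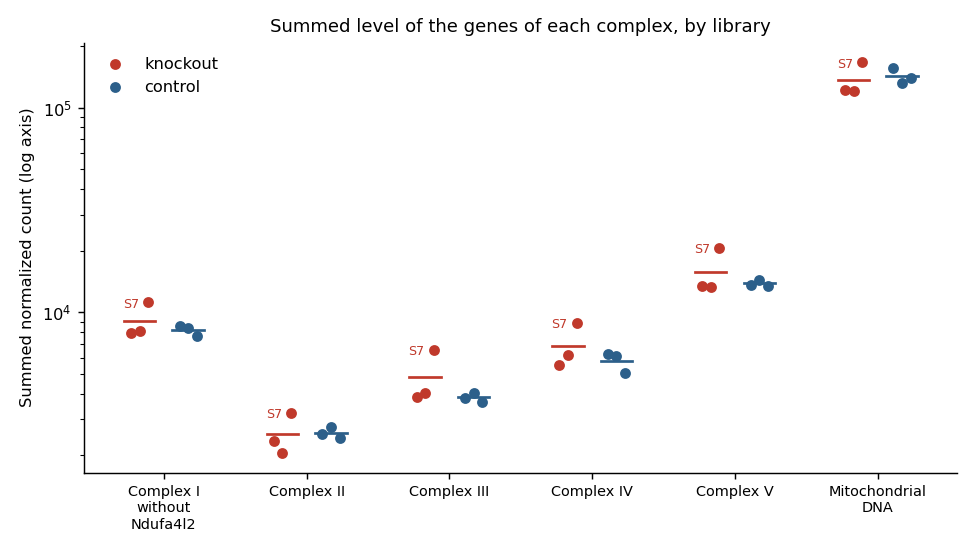
Summed normalised count per library, on a log axis, of the nuclear genes of each complex, Ndufa4l2 left out of complex I, and of the mitochondrially encoded genes, with bars for the group means. Plotted so, knockout library S7 was the highest point for each set, with 50605 over all nuclear genes without Ndufa4l2, against 33158 to 35718 in the 4 libraries next below it.

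The promoters of these genes are known to share binding sequences for a few factors, and 4 are shown, of complexes I, III, IV and V, each from the gene with the highest normalised count among those of its complex that held a match. RefSeq windows of 300 bases, from 250 bases before to 50 after the annotated start, were found for 67 of the 85 nuclear genes and searched on both strands for 4 short motifs. The NRF1 core GCGCATGC, bound by nuclear respiratory factor 1, was present in 14.9% of the 67 windows, in 5.16% of the windows of 10894 tested genes and in 2.80% of all 27025 windows. The ETS core CCGGAAG, bound by GABP, was present in 23.9%, 17.3% and 9.12%, and the YY1 core AAGATGG in 14.9%, 7.13% and 6.48%. The half-site AAGGTCA of the estrogen-related receptors was present in 11.9%, 2.96% and 4.66%. At least 1 of the 4 was present in 52.2% of the 67 windows, against 29.0% of those of the tested genes. Matches of different motifs were allowed to overlap. A match is a description of the letters and not of a bound site. The windows are from GRCm38.p6, written 5′ to 3′ on the gene's strand, with the matched letters in capitals: the YY1 core in Ndufb8, 2 overlapping NRF1 cores in Uqcrc1, 2 ETS cores in the reverse sense in Cox8a and the YY1 core in the reverse sense in Atp5pb.
Ndufb8, chr19:44555393-44555692, minus strand: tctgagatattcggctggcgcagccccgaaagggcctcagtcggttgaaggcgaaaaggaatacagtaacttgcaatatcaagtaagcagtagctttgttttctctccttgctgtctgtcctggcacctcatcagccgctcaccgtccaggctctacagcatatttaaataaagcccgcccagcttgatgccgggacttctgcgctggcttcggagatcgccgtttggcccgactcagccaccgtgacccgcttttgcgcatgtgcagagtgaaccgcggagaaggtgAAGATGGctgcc
Uqcrc1, chr9:108936398-108936697, plus strand: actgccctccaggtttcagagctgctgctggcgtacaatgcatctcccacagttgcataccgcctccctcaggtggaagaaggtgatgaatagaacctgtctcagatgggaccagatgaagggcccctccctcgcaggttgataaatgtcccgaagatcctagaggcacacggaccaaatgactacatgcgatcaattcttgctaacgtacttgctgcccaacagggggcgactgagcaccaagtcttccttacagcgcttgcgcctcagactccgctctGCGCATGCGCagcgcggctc
Cox8a, chr19:7217567-7217866, minus strand: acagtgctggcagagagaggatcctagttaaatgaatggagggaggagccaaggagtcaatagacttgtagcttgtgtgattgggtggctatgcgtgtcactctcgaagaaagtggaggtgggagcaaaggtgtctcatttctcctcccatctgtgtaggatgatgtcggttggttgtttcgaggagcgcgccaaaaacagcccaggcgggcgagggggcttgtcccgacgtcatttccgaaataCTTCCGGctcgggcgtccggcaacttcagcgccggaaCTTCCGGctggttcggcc
Atp5pb, chr3:105959214-105959513, minus strand: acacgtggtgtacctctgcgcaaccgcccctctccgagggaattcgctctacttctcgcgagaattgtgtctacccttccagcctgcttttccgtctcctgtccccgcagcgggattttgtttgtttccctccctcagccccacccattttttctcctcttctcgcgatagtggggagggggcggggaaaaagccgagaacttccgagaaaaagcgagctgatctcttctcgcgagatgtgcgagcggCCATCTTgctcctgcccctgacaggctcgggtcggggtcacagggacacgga

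The values of these 4 genes overlapped between groups except for Uqcrc1, which is described with complex III.

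Complex I, the NADH dehydrogenase, has a catalytic core of 7 nuclear and 7 mitochondrially encoded subunits and a shell of accessory subunits. Of the 39 genes named for it, 37 were tested, and Ndufa4l2, whose product is not a core subunit, was the one called.

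Ndufv1, which carries the NADH site, had 500.1, 519 and 759 in knockout and 388, 413 and 473 in control libraries (log2 fold change 0.45, adjusted p = 0.236, limma). Ndufa10, an accessory subunit, had 488, 527 and 760 in knockout and 357, 438 and 465 in control libraries (log2 fold change 0.47, adjusted p = 0.241, limma). In both the groups did not overlap, and without S7 their log2 fold changes were 0.26 and 0.27. Over all nuclear genes there were 5 with all knockout values above the control values (6.41% of 78), beside 15.7% of all tested genes, and 1, Ndufa4l2, with all knockout values below the control values (1.28%), beside 13.1%. In either direction the groups did not overlap for 28.8% of all tested genes. Groups were thus apart in a smaller share of the nuclear genes than of all genes.

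Ndufs1, the largest core subunit, had 558, 480 and 590 in knockout and 487, 597 and 577 in control libraries. Ndufs3, Ndufs7 and Ndufs8 had log2 fold changes of 0.02, 0.11 and 0.25 and Ndufv2 of 0.29, all with overlapping groups. The most negative accessory genes after Ndufa4l2 were Ndufb2 at -0.43, Ndufb3 at -0.41 and Ndufc1 at -0.40, and none passed the test (limma, adjusted p of 0.286 or more). Ndufa5 and Ndufb11b were too low to be tested. Ndufa5 had 15.7, 10.9 and 21.5 in knockout and 38.1, 12.5 and 14.3 in control libraries.

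Complex II, succinate dehydrogenase, is also an enzyme of the tricarboxylic acid cycle. Its 4 genes had log2 fold changes from -0.18 to -0.01, and each had overlapping groups. Sdha, the flavoprotein that oxidises succinate, had 936, 863 and 1180 in knockout and 882, 1105 and 1037 in control libraries. Sdhb, the iron-sulfur subunit, had 279, 262 and 399 in knockout and 362, 358 and 326 in control libraries (log2 fold change -0.18, adjusted p = 0.649, limma). The 95% intervals of all 4 lay within 1 log2 unit of 0.

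In complex III, the cytochrome bc1 complex, 7 of 9 genes had a log2 fold change above 0 and none passed the test. Uqcrc1, a core protein of the complex whose promoter is shown above, had 1279, 1304 and 2014 in knockout and 987, 1173 and 1056 in control libraries, and its groups did not overlap. Its log2 fold change was 0.48 ± 0.21 (SE; adjusted p = 0.216, limma), and 0.27 without S7. Cyc1, cytochrome c1, had 427, 429 and 679 in knockout and 310.1, 340 and 427 in control libraries (log2 fold change 0.48, adjusted p = 0.270, limma; 0.26 without S7). Knockout S5 and control S4 were at almost the same level, so these groups overlapped. Uqcrfs1, the Rieske iron-sulfur protein, had 586, 568 and 1132 in knockout and 450, 625 and 523 in control libraries, with S7 alone outside the control range.

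Complex IV, cytochrome c oxidase, passes electrons to oxygen. Of its 16 nuclear genes 13 were tested, 11 had a log2 fold change above 0 and none passed the test. Cox5a, a matrix-side subunit, had 339, 262 and 504 in knockout and 191, 242 and 225 in control libraries. The groups did not overlap, with a log2 fold change of 0.68 ± 0.26 (SE) and an adjusted p of 0.168 (limma). Without S7 the log2 fold change was 0.44. Of the windows of its longest protein-coding transcript, 32.0% also occurred in other genes. Cox5b had 238, 198 and 381 in knockout and 182, 207 and 146 in control libraries (log2 fold change 0.54, adjusted p = 0.286, limma; 0.28 without S7), with overlap. Cox8a, the gene with the highest level per kilobase among the nuclear genes of the complex at 1563 in knockout and 1090.0 in control, had 789, 726 and 1388 in knockout and 660, 748 and 616 in control libraries. Cox7a2l, which encodes a factor that joins complexes III and IV into supercomplexes, had 1043, 1476 and 2004 in knockout and 1394, 1423 and 1182 in control libraries, an overlap in which the lowest and the highest value were both from knockout libraries.

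Complex IV has paired isoforms that differ between tissues, given here as ratios of normalised counts that are not corrected for length. In each pair the common form had the higher count. Cox4i2, an oxygen-sensitive isoform of lung, stood at 0.676% to 1.18% of Cox4i1 in knockout and 0.285% to 1.01% in control libraries. The heart and muscle isoform Cox6a2 stood at up to 0.641% of Cox6a1 in knockout and up to 4.07% in control libraries, and Cox8b at up to 0.401% of Cox8a in knockout and up to 2.18% in control libraries. These 3 isoforms were too low to be tested, with normalised counts of 0 to 18.3, near or under the floor of 3 reads, 2.39 to 3.81, in several libraries. Skeletal muscle markers varied with the muscle isoforms: their sum was 1539, 876 and 1949 in knockout and 1211, 6629 and 12050 in control libraries, and Cox6a2 and Cox8b were highest in control S4. Of 10 tested muscle markers 0 were called (limma), 5 had an unadjusted p under 0.05, all lower in knockout, beside 10.8% of all tested genes in that direction, and Tnnc2 was at 0 in S5. The part of muscle cells in these values was not tested. Cox6b2, known from testis, was 3.51% to 10.02% of Cox6b1 in knockout and 3.88% to 8.53% in control libraries, and Cox5b-ps, a processed copy annotated as protein coding, was 11.0% to 18.4% of Cox5b in knockout and 13.1% to 18.4% in control libraries.

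In complex V, ATP synthase, 15 of 17 genes were tested, and none passed the test. Their log2 fold changes ran from -0.25 to 0.35, all groups overlapped, and all 15 intervals lay within 1 log2 unit of 0. Atp5b, the catalytic beta subunit, averaged 1329 per kilobase of exon in knockout and 1133 in control, with normalised counts of 4706, 4581 and 7611 in knockout and 4591, 4771 and 5043 in control libraries. Atp5a1, the alpha subunit, had 3943, 3559 and 5833 in knockout and 3435, 4232 and 3708 in control libraries. In both genes S5 and S6 were within or next to the control values and S7 was far above them. The log2 fold changes were 0.19 for Atp5b (adjusted p = 0.668, limma) and 0.20 for Atp5a1 (adjusted p = 0.634), and without S7 they were -0.05 and -0.01.

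The c ring of ATP synthase, which turns with the proton flow, is encoded by a set of genes for one mature protein. Per kilobase of exon, Atp5g3 averaged 278 in knockout and 238 in control, and Atp5g1 averaged 44.8 in knockout and 49.7 in control. The ratio of the normalised counts of Atp5g3 and Atp5g1 was 2.13 to 3.24 in knockout and 1.75 to 2.46 in control libraries. Atp5g2 was near 0 with 1.98, 5.54 and 9.75 in knockout and 1.27, 1.25 and 4.26 in control libraries. Atp5g2 and Atp5k, which helps ATP synthase form dimers, were not tested. Fitted without a filter on low values, none of the 7 untested nuclear genes passed the test (limma, adjusted p of 0.410 or more), and at an unadjusted p under 0.05 there was none either.

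The 13 mitochondrially encoded genes supply 7 subunits of complex I, 1 of complex III, 3 of complex IV and 2 of complex V, and are transcribed as long polycistronic RNAs that are then cut. Their summed normalised count was 122495, 120350 and 166696 in knockout and 156044, 132626 and 139293 in control libraries, and the groups overlapped. This was 0.732%, 0.779% and 1.04% of the library total in knockout and 0.802%, 0.513% and 0.862% in control. mt-Co1, the catalytic subunit of complex IV, took 67.1%, 67.1% and 68.5% of the counts in that sum in knockout and 63.7%, 60.8% and 67.2% in control libraries. It had 82166, 80788 and 114199 in knockout and 99325, 80634 and 93547 in control libraries, with overlapping groups and a log2 fold change of 0.01 (adjusted p = 0.996, limma).

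In 3 genes, mt-Nd2, mt-Cytb and mt-Nd4, the groups were apart, each with every knockout value below every control value (23.1% of 13, beside 13.1% of all tested genes lower and 15.7% higher). mt-Nd2, a core subunit of complex I, had 775, 718 and 823 in knockout and 1075, 1230.3 and 927 in control libraries. Its log2 fold change was -0.47 ± 0.16 (SE) with an adjusted p of 0.133 (limma), short of the threshold. mt-Cytb, the cytochrome b of complex III, had 7632, 7136 and 9688 in knockout and 11866, 11465 and 10476 in control libraries (log2 fold change -0.48, adjusted p = 0.203, limma). mt-Nd4, another core subunit of complex I, had 3005, 3093 and 3413 in knockout and 4263, 4366 and 3570.3 in control libraries (log2 fold change -0.35, adjusted p = 0.231, limma). Scaled to a common total, the log2 fold changes of mt-Nd2, mt-Cytb and mt-Nd4 were -0.149, -0.155 and -0.033. That scaling moved the median of all genes to 0.31. With an upper-quartile scaling the 3 values were -0.537, -0.546 and -0.424.

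The remaining genes overlapped between groups. mt-Nd1 had 3957, 4177 and 5249 in knockout and 4383, 4230 and 3626 in control libraries, a log2 fold change of 0.12. The log2 fold change was -0.08 for mt-Nd5, 0.03 for mt-Nd6 and 0.18 for mt-Atp8. mt-Nd6 is the one protein gene on the other strand, and whether its count includes reads of the opposite strand is not stated. mt-Nd3 had a log2 fold change of -0.40 (adjusted p = 0.370, limma) and mt-Co3 one of -0.25 (adjusted p = 0.601). Those of mt-Atp6, mt-Nd4l and mt-Co2 were -0.12, -0.10 and 0.02, and mt-Atp8 and mt-Nd4l overlap mt-Atp6 and mt-Nd4 in part. mt-Nd2 and mt-Nd1, neighbours on the same strand and in the same complex, thus had different signs with all libraries in the fit. The value of mt-Nd1 had an SE of 0.18, and without S7 it was -0.0002.

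Some of these values are uncertain because chromosome 1 carries a near-identical nuclear copy of part of the mitochondrial genome. Of the 50-base windows of mt-Co2, mt-Co3, mt-Atp6, mt-Nd4l and mt-Nd3, 98.0% to 100% also occurred in another gene, against 62.2% for mt-Nd4, 51.1% for mt-Co1, 8.19% for mt-Nd2, 7.61% for mt-Nd5 and 0% for mt-Nd1, mt-Cytb, mt-Nd6 and mt-Atp8. The table lists the copies as pseudogenes at similar levels: the copy of mt-Co3 (Gm28437) stood at 0.935 to 1.02 times mt-Co3 over the 6 libraries and that of mt-Co2 (Gm28661) at 0.802 to 0.996 times mt-Co2. The copy of mt-Atp6 (Gm10925) stood at 1.70 to 2.21 times mt-Atp6, while that of mt-Co1 (Gm29216), of which mt-Co1 shares a smaller part, was at 0.00698 to 0.0167. For mt-Co3 and its copy together the sum was 27518, 27044 and 38994 in knockout and 43102, 37942 and 31054 in control libraries. None of the 7 copies was called. mt-Nd2 and mt-Cytb, both apart between groups, have little or no shared sequence.

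The balance between the genomes was then set out per library, which does not depend on how libraries are scaled. For the 6 mitochondrially encoded genes with under 10% shared windows, the ratio of their sum to that of the nuclear genes without Ndufa4l2 was 0.446, 0.437 and 0.374 in knockout and 0.576, 0.553 and 0.559 in control libraries. Every knockout ratio was below every control ratio, with means of 0.419 ± 0.039 in knockout and 0.562 ± 0.012 in control (SD, n = 3 each). The largest part of the 6-gene sum was mt-Cytb, itself apart between groups. Its mean was 8152 of a mean sum of 16125 in knockout and 11269 of 19282 in control. This ratio was not computed without mt-Cytb. For the 12 genes other than mt-Co1 it was 1.22, 1.18 and 1.04 in knockout and 1.63, 1.46 and 1.42 in control libraries, again without overlap. With mt-Co1 included the ratio was 3.69, 3.58 and 3.29 in knockout and 4.47, 3.71 and 4.32 in control libraries, and knockout S5 was nearly level with control S3. The lowest ratio was that of S7, the library with the highest nuclear sum. These ratios over genes are descriptions and were given no test.

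**Figure D4:**
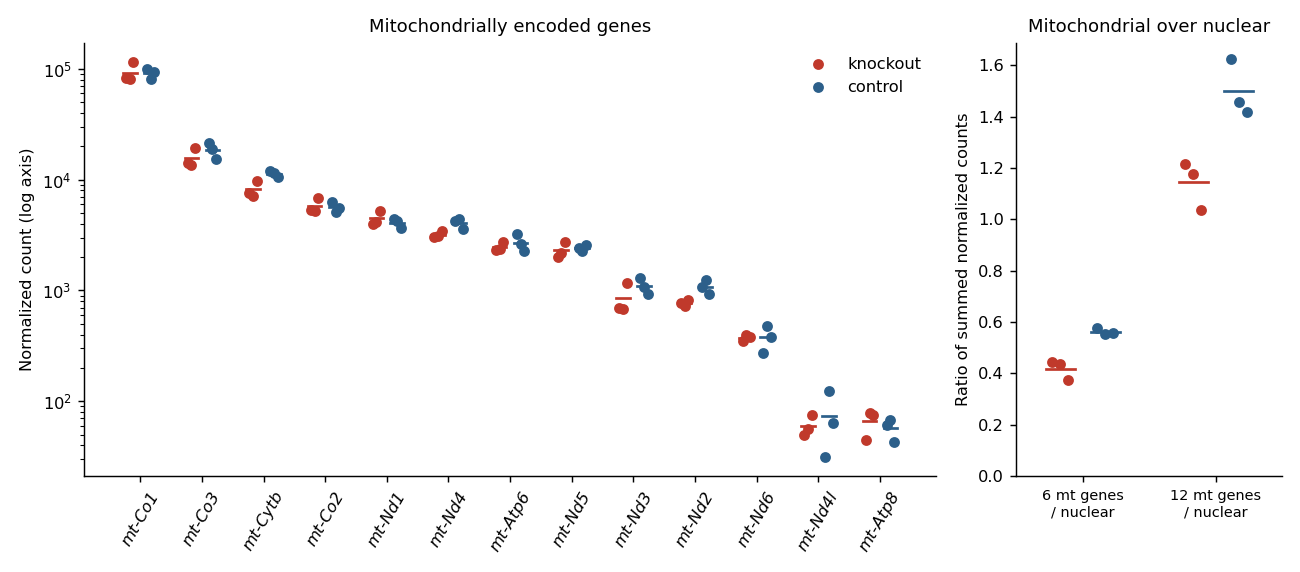
Left, normalised counts on a log axis of the 13 mitochondrially encoded genes, and right, the ratio of 6 or 12 of them to the nuclear genes without Ndufa4l2, by library with bars for the group means. In the right panel the knockout libraries lay at 0.374 to 0.446 and the control libraries at 0.553 to 0.576 for the 6 genes with little shared sequence.

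The genes that assemble, feed and regulate the chain were read from the same fit. In 10 lists of assembly factors, electron carriers, tricarboxylic acid cycle enzymes, regulators, mitochondrial DNA maintenance factors and carriers, 0 of 110 tested genes were called (limma), and 14 (12.7%) had an unadjusted p under 0.05, 6 of them higher and 8 lower in knockout, beside 23.2% of all tested genes. Of the 110, 58 had a log2 fold change above 0 and 52 below, with a median of 0.01.

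By role, assembly factors of complex I had 7 of 13 above 0, those of complex II 4 of 4, those of complex III 0 of 6 and those of complex IV 9 of 20. The 3 ATP synthase factors lay between -0.25 and 0.40. Among the complex IV factors Cox19, which serves copper delivery, had 204, 250 and 177 in knockout and 557, 570 and 243 in control libraries, with a log2 fold change of -1.003 (adjusted p = 0.132, limma) and an overlap between knockout S6 and control S4. Tmem186, a complex I assembly factor, had 169, 94.8 and 136 in knockout and 262, 199 and 226 in control libraries (log2 fold change -0.77, adjusted p = 0.120), with no overlap.

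Cycs, which encodes the mobile carrier cytochrome c, had 319, 336 and 372 in knockout and 346, 308 and 356 in control libraries, a log2 fold change of 0.02. Of the 18 cycle and pyruvate dehydrogenase genes, 12 had a log2 fold change above 0, over a range of -0.25 to 1.64. At an unadjusted p under 0.05, 3 were higher (16.7%) and 0 lower, beside 12.4% and 10.8% of all tested genes. Ogdh, the oxoglutarate dehydrogenase, had 2770, 2171 and 2771 in knockout and 2578, 3682 and 2602 in control libraries, and Dlst, another component of the same enzyme, had 1487, 1408 and 1639 in knockout and 1038, 1125 and 1188 in control libraries (log2 fold change 0.43, adjusted p = 0.121, limma). Dlst was thus apart between groups while Ogdh overlapped. Slc25a3, the phosphate carrier that supplies ATP synthase, had 3311, 3890 and 3664 in knockout and 3132, 3232 and 3202 in control libraries (log2 fold change 0.18, adjusted p = 0.504).

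The regulators known to bind the motifs above overlapped between groups: Nrf1 had a log2 fold change of -0.02, Gabpa of -0.07 and Yy1 of 0.17. Esrra, an estrogen-related receptor gene, had a log2 fold change of 0.44 (adjusted p = 0.290, limma). Ppargc1b, a coactivator of respiratory genes, had 57.9, 63.8 and 115 in knockout and 17.8, 18.7 and 44.6 in control libraries, apart between groups but short of the threshold (log2 fold change 1.30, adjusted p = 0.0971). Its relative Ppargc1a was low, at 25.5, 32.8 and 30.2 in knockout and 53.4, 30.0 and 38.7 in control libraries. Polg2, an accessory subunit of the mitochondrial DNA polymerase, had the lowest adjusted p of these lists: 328, 686 and 254 in knockout and 1071, 731 and 915 in control libraries, with a log2 fold change of -1.19 and an adjusted p of 0.0944. The catalytic subunit gene Polg overlapped, with 1031, 1217 and 885 in knockout and 904, 875 and 1059 in control libraries. Tfam, which packages and transcribes mitochondrial DNA, had a log2 fold change of -0.07. Over the 17 tested mitochondrial DNA maintenance factors the log2 fold changes ran from -1.30 to 0.63.

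Ribosomal protein genes gave a comparison with another abundant nuclear class. Of 77 tested cytosolic ribosomal protein genes 0 were called (limma), 15 (19.5%) had an unadjusted p under 0.05, all higher in knockout, beside 12.4% of all tested genes in that direction, and the median log2 fold change was 0.33 with 70 above 0. Of 78 tested mitochondrial ribosomal protein genes 0 were called, 3 higher (3.85%) and 2 lower (2.56%) had an unadjusted p under 0.05, beside 12.4% and 10.8% of all tested genes, and the median was 0.07, next to 0.09 for the nuclear oxidative phosphorylation genes.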

How the data were processed

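RNA of sorted skin cells was sequenced in 3 Zfp750 knockout and 3 control samples. The authors deposited normalized counts per gene as 1 table, treated here as a signal in which estimated reads were divided by a size factor of each library (0.787 to 1.26), with no scaling for gene length or to equal totals. TopHat2 2.1.0 and Partek 9.0.20.0202 appear in the submitters' processing notes, with no role stated. The build, the gene annotation and whether counting used strand are not stated, so overlapping and antisense genes are uncertain. In each library 78.7% to 81.2% of values of at most 1000 reads came out whole (tolerance 0.05), and for that reason no count model was fitted. A floor of 3 reads is a normalised count of 2.39 to 3.81, and it covers counting error only.

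The test took genes that reached a normalised count of 1e-06 of the library total in 3 or more of the 6 libraries (15935; 91 of the 98 genes described here). It used limma 3.58.1 in R 4.3.3, with an intensity trend and 2-sided, on log2(value + 9.15), where 9.15 is 0.5 times that share of the mean library total. Fold changes on this scale understate those of low genes. P-values were adjusted over all tested genes by the Benjamini-Hochberg method. The fit was also run on simulated data with known fold changes, larger than those of the uncalled oxidative phosphorylation genes. Noise was drawn separately for each gene. That run therefore does not cover small changes or shifts shared by many genes of a library. Levels per kilobase used the combined exon length of all transcripts of a gene in GENCODE release M21, which also supplied the GRCm38 positions. Shared 50-base windows were those of each member's longest protein-coding transcript, matched to the transcripts of other genes in that release. Over 25% of the windows were shared in 15 nuclear genes, whose values carry this uncertainty. Promoter windows are RefSeq's. Python 3.11.15 with pandas 2.3.3 did the summaries.

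The members, lists and tests were chosen with earlier results of these data known. A rule chose genes to name: the called ones, all mitochondrially encoded genes and isoform pairs. In each complex it added the 3 with the lowest p and the 2 with the highest mean. In pathway lists it took the highest by mean where none was called. Not every gene of this choice is given. Cox19, Tmem186, Dlst, Polg2, Ppargc1a, Ppargc1b, Esrra, Nrf1, Gabpa, Tfam, Cycs, further members of the complexes, the hypoxia list, the ribosomal lists and Pdgfra, Pdgfrb, Rgs5, the collagen genes and the other cell type markers were named after their values were seen. Values of some members are left out of this text. Alternatives were other pseudocounts, filters and scalings, no intensity trend, and leaving out each library.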

Additional observations from a re-analysis of the deposited data

How the results depend on the processing

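The call of Ndufa4l2 held in all 14 alternatives, with log2 fold changes of -3.77 to -3.02 and adjusted p-values of 0.00074 to 0.0289 (limma); the count of called nuclear genes was 1 and that of mitochondrially encoded genes 0 in each. Over the 39 tested genes named by the rule, no call was gained, lost or reversed, and 19 uncalled genes changed sign in 37 of 543 comparisons. Over all genes, 337 to 1285 were called when 1 library was left out, against 1070 with all. Fewer libraries enter those fits. Scaled to a common total, the median log2 fold change was 0.41 for nuclear and 0.20 for mitochondrially encoded genes. Since all genes then had a median of 0.31, the distance from it was 0.09 and -0.11, close to 0.08 and -0.11 without that scaling. That scaling called 78.9% of the changed genes higher in knockout, an upper-quartile scaling 51.3%, and the deposited values 61.4%. Without S7 the nuclear median was -0.08, and without S5 that of the mitochondrially encoded genes was 0.00. Low reads limit the 7 untested genes. No paired analysis was possible because the columns carry no replicate number that matches the labels. Count models (edgeR, DESeq2) were not run, since the values are whole reads only in part.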
